A study of Mus musculus with 4 samples.

Results

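The genes described here are 10 that respond to glucocorticoids: the receptor gene Nr3c1 and Ddit4, Klf9, Errfi1, Fkbp5, Tsc22d3, Sgk1, Zbtb16, Cebpd and Per1, classical targets of that receptor. They were chosen by name, as the probes whose platform gene symbol is 1 of these 10. Of the 10 genes, 9 had a probe, with 10 probes among the 23473 on the array, and 8 were tested among 15955 genes. Zbtb16 had no probe under that symbol alone in the annotation used here. RNA came from the ventricle of male mice of strain 129SV, of 2 genotypes: wild type (2 samples) and TRPC6 knockout, Trpc6-/- (2 samples). Trpc6 encodes a cation channel of the cell membrane. Treatment, age and time of day are not given in the sources used here. Every sample was hybridised alone to a single 1-colour array, and with 4 arrays precision is limited by their number. Whether the samples of a genotype are separate animals is not in the labels, so p-values cover only a spread that could be technical.

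Glucocorticoids, corticosterone in the mouse, cross the cell membrane and bind the glucocorticoid receptor, which waits in the cytosol in a complex with heat shock protein 90 and immunophilins. The bound receptor moves to the nucleus and binds a palindromic DNA sequence, the glucocorticoid response element, near the genes it switches on. Corticosterone follows the clock and surges with stress and handling, and cardiomyocytes carry both this receptor and the related mineralocorticoid receptor.

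Start sites of Nr3c1, Cebpd and Zbtb16 were not used. Those of the other 7 members were taken from the RefSeq promoter table for GRCm38.p6, as 16 windows. The windows run from 250 bases before to 50 bases after an annotated start. They were searched on both strands for 4 sets of letters: the full glucocorticoid response element (AGAACA, then NNN, then TGTTCT), its half-site AGAACA, the E-box CACGTG to which clock factors bind, and the cyclic AMP response element TGACGTCA. The full element contains half-sites, so its matches count in both. It stood in 3 of 32851 windows of all genes, or 0.00913%, and 1 of these 3 belongs to Sgk1. The half-site stood in 19.0% of all windows, the E-box in 7.15% and the cyclic AMP response element in 1.79%. The half-site was in 4 of the 16 windows of the members, 3 of Sgk1 and 1 of Tsc22d3. A match in these letters describes the window only, and was not tested as a binding site.

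The windows below are printed for the members whose values differed most between arrays and for Errfi1, 5′ to 3′ on the strand of the gene, with every match in capitals. Matches were found in 3 of 6 windows of Sgk1, 1 of 3 of Tsc22d3, 1 of 2 of Errfi1, 1 of 2 of Per1 and the 1 window of Fkbp5, and the other windows of these genes held none; of Sgk1 the window with the full element is shown. That Sgk1 window is chr10:21993640-21993939 on the plus strand. In it the full element begins at position -189, counted from the start site, and an E-box at -246 overlaps a reverse half-site at -242. The Tsc22d3 window with a match is chrX:140600473-140600772 on the minus strand, with a reverse half-site at -185. The Fkbp5 window is chr17:28486100-28486399 on the minus strand, with an E-box at -169. The Errfi1 window with a match is chr4:150854820-150855119 on the plus strand, with a cyclic AMP response element at -51. The single Ddit4 window is chr10:59951721-59952020 on the minus strand and held none of the 4 sets of letters.
Sgk1: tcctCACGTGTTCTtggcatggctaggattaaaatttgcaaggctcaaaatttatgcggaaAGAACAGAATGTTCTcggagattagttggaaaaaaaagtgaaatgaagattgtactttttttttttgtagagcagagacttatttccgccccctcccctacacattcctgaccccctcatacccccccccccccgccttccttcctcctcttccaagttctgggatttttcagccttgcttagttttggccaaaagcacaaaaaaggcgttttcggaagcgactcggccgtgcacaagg
Tsc22d3: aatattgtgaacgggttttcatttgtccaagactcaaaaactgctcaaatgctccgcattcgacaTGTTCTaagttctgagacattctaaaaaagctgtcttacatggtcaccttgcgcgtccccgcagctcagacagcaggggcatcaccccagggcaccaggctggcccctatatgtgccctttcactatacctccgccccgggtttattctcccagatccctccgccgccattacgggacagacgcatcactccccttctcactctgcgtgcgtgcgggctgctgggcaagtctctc
Fkbp5: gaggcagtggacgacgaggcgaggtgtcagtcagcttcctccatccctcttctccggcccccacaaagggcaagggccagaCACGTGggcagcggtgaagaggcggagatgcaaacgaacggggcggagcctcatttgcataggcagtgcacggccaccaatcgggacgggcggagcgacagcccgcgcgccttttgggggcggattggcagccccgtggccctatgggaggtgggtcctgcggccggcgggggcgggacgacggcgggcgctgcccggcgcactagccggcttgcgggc
Errfi1: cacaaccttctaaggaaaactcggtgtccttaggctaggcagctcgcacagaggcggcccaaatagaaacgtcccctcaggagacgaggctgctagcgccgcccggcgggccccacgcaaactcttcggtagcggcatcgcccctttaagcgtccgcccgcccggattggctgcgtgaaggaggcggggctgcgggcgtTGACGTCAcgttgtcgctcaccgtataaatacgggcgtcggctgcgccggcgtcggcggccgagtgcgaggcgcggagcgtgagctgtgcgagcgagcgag
Ddit4: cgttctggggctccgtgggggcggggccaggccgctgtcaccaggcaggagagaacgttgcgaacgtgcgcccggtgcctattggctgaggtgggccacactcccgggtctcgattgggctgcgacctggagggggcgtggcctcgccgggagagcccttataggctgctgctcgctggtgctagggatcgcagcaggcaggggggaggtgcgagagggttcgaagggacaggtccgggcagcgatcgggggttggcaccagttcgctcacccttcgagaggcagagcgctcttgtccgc
The Per1 window with a match, chr11:69098699-69098998 on the plus strand, held an E-box at -166, and the single Klf9 window held none of the 4.

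Spot intensities are medians in scanner units. Detection meant a spot above the 95th percentile of the blank and negative control spots of its array, which lay at 80.8 and 91.5 units for wild type and at 85.5 and 83.3 units for the knockout. Between 76.3% and 83.2% of probes passed it. The single Trpc6 probe was above background on 0 of 4 arrays and could not check the genotypes. Cardiomyocyte markers (Myh6, Tnnt2, Tnni3, Actc1, Myl2, Myl3, Ryr2 and Pln) were above background on all 4 arrays, 8 of 8. The first wild-type array stood apart in red blood cell genes: the summed linear normalized intensity of 5 such genes was 1215 there, 3070 on the second wild-type array, and 3670 and 3807 on the knockout arrays. In pieces of whole tissue, fewer cells of a type and less RNA per cell cannot be told apart.

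Ddit4 had the largest difference between genotypes among the 8 members tested, 1.94-fold higher in the knockout, and the other 7 differed by at most 1.15-fold. Across 15955 genes limma called 0 at an adjusted p under 0.05, with a smallest adjusted p of 0.369, so 0 of 8 members were called. At an unadjusted p under 0.05 the count was 1 of 8 members, Ddit4, against 6.74% of all genes (585 higher and 491 lower in the knockout). The knockout arrays lay both above the wild-type arrays for 4 members, Ddit4, Klf9, Errfi1 and Per1, and both below for 0, where 19.4% and 17.4% of all genes did so. The knockout mean was the higher one for 7 of 8 members, all but Tsc22d3, and for 51.1% of all genes. A difference of 0.5 or more in either direction on the log2 scale was seen in 1 of 8 members, Ddit4, and in 0.232% of all genes. All genes include dim ones, whose differences the background correction shrinks, while only 16.9% of genes were brighter than Ddit4. The median log2 fold change, knockout minus wild type, was 0.075 over the 8 members and 0.002 over all genes tested. Without the second wild-type array the members' median was 0.328.

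**Figure D1:**
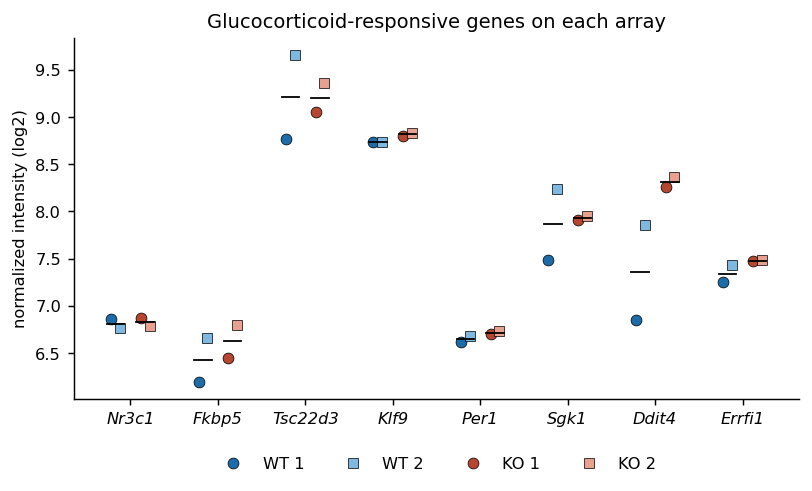
Normalized log2 intensity of the 8 members above background, 1 point per array (WT, wild type; KO, TRPC6 knockout), with a black line at each group mean. Fkbp5, Tsc22d3, Sgk1 and Ddit4 are low on the first wild-type array, and Klf9 and Per1 differ little between any arrays; heights of different genes come from different probes and are not comparable.

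The receptor itself, Nr3c1, gave 142 and 147 units in wild type against 141 and 137 units in the knockout. The authors' table lists 62.7 and 48.1 units for wild type and 55.7 and 56.9 units for the knockout. After normalization its log2 intensity was 6.86 and 6.76 in wild type against 6.87 and 6.79 in the knockout. The 2 groups overlap, and the log2 fold change was 0.02 ± 0.06 (standard error, n = 2 arrays per group, limma adjusted p = 0.976). It was 0.07 and -0.04 when the first or the second wild-type array was left out, and -0.02 and 0.06 when the first or the second knockout array was, on both sides of 0.

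Fkbp5 encodes FKBP51, an immunophilin that sits on the receptor complex, lowers its affinity for hormone and is itself induced by the receptor, closing a feedback loop. Its spots read 98.5 and 140 units in wild type against 114 and 138 units in the knockout, and the authors' table lists 19.7, 42.2, 29.6 and 57.5 units in the same order. On the normalized log2 scale it was at 6.19 and 6.66 in wild type and at 6.45 and 6.80 in the knockout. Both genotypes had 1 lower and 1 higher array, and the groups overlap. The difference between the wild-type arrays was 0.48, that between the knockout arrays 0.35, and the log2 fold change 0.20 ± 0.20 (n = 2 per group, limma adjusted p = 0.887). It was -0.04 without the first wild-type array, 0.44 without the second, 0.37 without the first knockout array and 0.02 without the second.

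Tsc22d3 encodes GILZ, the glucocorticoid-induced leucine zipper, which carries part of the anti-inflammatory action of the hormone. Spot intensities were 462 and 919 units in wild type against 546 and 663 units in the knockout, against 376.3, 670.7, 439.7 and 595.4 units in the authors' table. The normalized log2 values were 8.77 and 9.66 in wild type against 9.05 and 9.36 in the knockout. The lowest and the highest value both belong to wild type, with the knockout arrays between them. Only 26 of 15955 genes differed more between the wild-type arrays than Tsc22d3, which differed by 0.88. Its log2 fold change was -0.01 ± 0.32 (n = 2 per group, limma adjusted p = 0.998), and it was -0.45 without the first wild-type array, 0.43 without the second, 0.15 without the first knockout array and -0.17 without the second.

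Klf9, a Krüppel-like transcription factor that the receptor induces and that feeds back on its targets, had 2 probes. The brighter probe gave 446 and 490 units in wild type against 463 and 470 units in the knockout, and the authors' table lists 361.4, 324.1, 361.6 and 398.1 units. The dimmer probe was above background on 1 of 4 arrays, the second knockout array, and was not tested. On the brighter probe the normalized log2 intensity was 8.73 and 8.74 in wild type against 8.80 and 8.83 in the knockout. The groups do not overlap and all 4 values lie close together. The log2 fold change was 0.08 ± 0.04, or 1.06-fold (n = 2 per group, limma adjusted p = 0.773). After subtraction of the local background it was -0.46, the opposite direction.

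Per1 encodes a repressor of the circadian clock and is switched on by glucocorticoids and by cyclic AMP signals. It read 124 and 141 units in wild type against 130 and 133 units in the knockout, with 45.2, 43.3, 44.9 and 53.0 units in the authors' table. Normalized log2 values were 6.62 and 6.68 in wild type against 6.70 and 6.73 in the knockout. The groups are separate by a small margin. The log2 fold change was 0.07 ± 0.04 (n = 2 per group, limma adjusted p = 0.818), 0.04 without the first wild-type array and -0.35 after subtraction of the local background.

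Cebpd, a leucine zipper transcription factor of the C/EBP family induced early by glucocorticoids and cytokines, was not above background on any array. Its probe gave 78.1 and 88.8 units in wild type against 83.2 and 82.0 units in the knockout, each below the limit of its array, and no fold change is given. Among its relatives, Cebpb, which shares its binding site, was at 8.33 and 8.87 in wild type and at 8.97 and 9.14 in the knockout, with a log2 fold change of 0.46 ± 0.19 (n = 2 per group, limma adjusted p = 0.756).

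Sgk1 encodes serum- and glucocorticoid-regulated kinase 1, which acts on ion channels and transporters below PI3 kinase, and its start region carried the full response element printed above. It gave 205 and 357 units in wild type against 261 and 269 units in the knockout, and 124.1, 217.2, 169.4 and 192.4 units in the authors' table. The normalized log2 values were 7.49 and 8.24 in wild type against 7.91 and 7.95 in the knockout. As for Tsc22d3, the wild-type arrays are the lowest and the highest of the 4. They differed by 0.75, which 41 of 15955 genes exceeded, while the knockout arrays differed by 0.04. The log2 fold change was 0.07 ± 0.25 (n = 2 per group, limma adjusted p = 0.978), -0.31 without the first wild-type array, 0.44 without the second and 0.05 without the second knockout array.

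Ddit4 encodes REDD1, an inhibitor of mTOR complex 1 that glucocorticoids, hypoxia, DNA damage and energy stress induce. Its spots gave 141 and 281 units in wild type against 327 and 347 units in the knockout. In the authors' table it stands at 61.2 and 155.9 units in wild type and at 231.8 and 272.2 units in the knockout, a ratio of group means of 2.32. On the normalized log2 scale it was at 6.85 and 7.86 in wild type and at 8.26 and 8.36 in the knockout. Both knockout arrays lie above both wild-type arrays, and the first wild-type array is far below the other 3. The log2 fold change was 0.96 ± 0.34, or 1.94-fold (n = 2 per group), with an unadjusted limma p of 0.0427 and an adjusted p of 0.727. Of 15955 genes, 2 had a larger absolute fold change, the red blood cell genes Hba-a2 (1.03) and Hbb-bs (0.98). A larger difference between the wild-type arrays, which was 1.01 for Ddit4, was seen in 12 genes, Hba-a2, Hbb-bs, Hbb-bt and Hbb-b2 among them. Ddit4 ranked 928 by its unadjusted limma p. The fold change was 0.45 without the first wild-type array (adjusted p = 0.142) and 1.47 without the second (adjusted p = 0.0604), within a range of adjusted p from 0.0604 to 1 over all alternatives. It was 0.55 after subtraction of the local background. The unadjusted p was above 0.05 in 4 of 15 alternatives: with that subtraction, with a common median, and without either knockout array (fold changes of 1.01 and 0.91).

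Errfi1 encodes MIG6, a cytosolic inhibitor of the EGF receptor family. It read 178 and 217 units in wild type against 200 and 203 units in the knockout, with 97.8, 103.9, 111.5 and 124.0 units in the authors' table. Normalized log2 values were 7.25 and 7.43 in wild type against 7.47 and 7.48 in the knockout. The first wild-type array is the low one, and the other 3 lie within 0.05 of each other. The log2 fold change was 0.13 ± 0.07 (n = 2 per group, limma adjusted p = 0.777), 0.05 without the first wild-type array and 0.22 without the second.

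**Figure D2:**
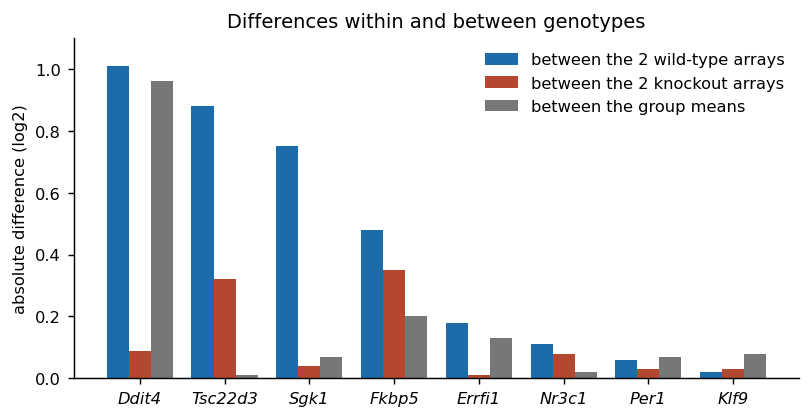
Absolute differences in normalized log2 intensity for each member: between the 2 wild-type arrays, between the 2 knockout arrays and between the group means. The wild-type arrays differ by 1.01 for Ddit4, 0.88 for Tsc22d3 and 0.75 for Sgk1, and for 6 of the 8 members by more than the group means do.

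The wild-type arrays were further apart than the group means for 6 of 8 members, the exceptions being Klf9 and Per1, against 61.5% of all genes. The median absolute difference between the wild-type arrays was 0.328 over the members and 0.061 over all genes, and between the knockout arrays it was 0.060 and 0.049. The first wild-type array was the lower of the pair for 7 of 8 members, all but Nr3c1, against 48.9% of all genes. The first knockout array was the lower of its pair for the same 7, against 49.6% of all genes, by at least 0.5 for 0 of 8 members and for 0.257% of all genes. By at least 0.5 on the log2 scale, or 1.41-fold, a step chosen after the values were seen, the first wild-type array was below the second for 3 of 8 members, Ddit4, Tsc22d3 and Sgk1, against 0.445% of all genes. These are differences between 2 single samples, with no replicate check. The shares over all genes are not matched for brightness. Between 6.56% (Tsc22d3) and 44.5% (Fkbp5) of genes were brighter than a tested member, and the background correction used here shrinks differences of dim probes.

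Some other genes that glucocorticoids induce also differed between the wild-type arrays, in differing patterns. They were listed with earlier results of these data known, so their count is no independent support for the members' differences. The shares over all genes are not matched for brightness here either. Of 39 listed, 37 were tested, and 7 were lower on the first than on the second wild-type array by at least that step, while 0 were higher by it, where 0.445% and 0.432% of all genes did so. The 7 were the metallothioneins Mt1 and Mt2, Irs2, Pdk4, Map3k6, Sesn1 and Cdkn1c. Without the step, the first wild-type array was the lower one for 27 of the 37, against 48.9% of all genes. Some genes went the other way by less than the step, with second minus first of -0.44 for Dusp1 and -0.3 for Rhob. Pdk4, the kinase that shuts pyruvate dehydrogenase, was at 7.62 and 8.50 in wild type and at 8.05 and 8.37 in the knockout. Mt2, which binds zinc, was at 7.77 and 8.77 in wild type and at 8.69 and 9.37 in the knockout. Irs2, an adaptor of the insulin receptor, was at 7.24 and 8.23 in wild type and at 7.24 and 7.18 in the knockout, so that its second wild-type array alone was high. Cdkn1c was also highest there, at 7.35 and 7.91 in wild type and at 7.31 and 7.40 in the knockout. Sesn1, an inhibitor of mTOR complex 1 like Ddit4, was at 9.40 and 10.02 in wild type and at 9.77 and 10.29 in the knockout. In both genotypes the first array was the lower one for Mt2, Pdk4 and Sesn1, as for Fkbp5 and Tsc22d3, and array numbers do not pair samples across genotypes in the labels.

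**Figure D3:**
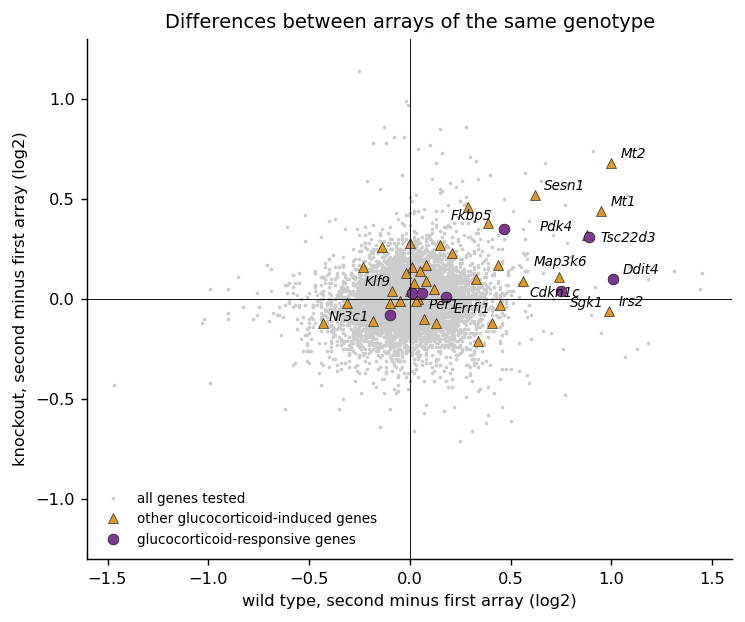
Second minus first array in normalized log2 intensity, for wild type (horizontal) and knockout (vertical), for the members (purple), the other glucocorticoid-induced genes (orange triangles) and all genes tested (grey); 1 gene lies outside the axes. Ddit4, Tsc22d3, Sgk1 and 7 other induced genes lie at least 0.5 to the right, where 0.445% of all genes lie.

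Between genotypes, the other induced genes gave 26 means higher and 11 lower in the knockout, with a median log2 fold change of 0.059 against 0.002 over all genes. None had an adjusted p under 0.05 in limma. At an unadjusted p under 0.05 there were 4 higher and 1 lower, against 3.67% and 3.08% of all genes, and the groups did not overlap for 12 higher and 3 lower of 37, against 19.4% and 17.4% of all genes. Rgs2, a brake on Gq-coupled receptors, was at 9.16 and 9.24 in wild type and at 9.41 and 9.50 in the knockout. Glul, glutamine synthetase, was at 8.14 and 8.47 in wild type and at 8.64 and 8.74 in the knockout, and Arrdc2, an arrestin-domain protein, at 6.48 and 6.48 and at 6.62 and 6.90. Trim63, the muscle ubiquitin ligase MuRF1, was at 7.12 and 7.57 in wild type and at 6.78 and 6.75 in the knockout, lower in both knockout samples, with a log2 fold change of -0.58 ± 0.15. Fbxo32, atrogin-1, the other muscle ligase under glucocorticoid control, had a log2 fold change of -0.01 ± 0.05. The median over the list was -0.005 after subtraction of the local background, 0.135 without the first knockout array and 0.227 in the authors' table.

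The machinery of the receptor gave 19 tested genes of 23, 13 with a higher and 6 with a lower mean, a median log2 fold change of 0.028 and 0 calls. Hsp90aa1, the inducible heat shock protein 90 that holds the receptor ready for hormone, was at 10.22 and 10.34 in wild type and at 10.47 and 10.72 in the knockout, with a log2 fold change of 0.31 ± 0.10 (n = 2 per group, limma adjusted p = 0.727). It was the 1 gene of the 19 with an unadjusted p under 0.05, where 6.74% of all genes had one. Nr3c2, the mineralocorticoid receptor, was at 6.08 and 6.18 in wild type and at 6.02 and 5.99 in the knockout. Bag1, a cochaperone, was at 10.20 and 10.04 in wild type and at 9.97 and 9.94 in the knockout, and the coactivator Ncoa3 had a log2 fold change of 0.17 ± 0.09. Hsd11b1, which regenerates active corticosterone inside cells, was at 7.57 and 7.67 in wild type and at 7.47 and 7.58 in the knockout, and Hsd11b2, which inactivates it, was not above background on enough arrays.

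Of 18 listed inflammatory genes that the receptor represses, 13 were tested, with a median log2 fold change of -0.034 and 0 calls. The knockout mean was higher for 2 and lower for 11, where it was higher for 51.1% of all genes. Over the alternatives the median ran from -0.361 in the authors' table, with 10 genes of the list tested, to 0.001 after scaling to a common 75th percentile. That scaling moved the median of all genes to 0.039. With a normexp offset of 0 the median of the list was -0.18. Ptgs2, cyclooxygenase 2, was at 6.15 and 6.14 in wild type and at 6.04 and 6.05 in the knockout (n = 2 per group, limma adjusted p = 0.739). The chemokines Ccl2, Ccl7 and Cxcl1 had log2 fold changes of -0.11 ± 0.06, -0.09 ± 0.05 and -0.07 ± 0.05. Il6, Tnf, Nos2, Mmp9 and Csf2 were not above background on enough arrays. Apart from Icam1 and Vcam1 the tested genes were dim, with group means of 5.80 to 6.18. Cebpd, which was below background, read 5.72 to 5.77 on that scale. Il1a, Ccl7, Cxcl10 and Mmp13 were not above background on every array, and a filter for all 4 arrays left 9 genes of this list.

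The other inputs of the members gave no call either. Of 12 tested hypoxia targets 3 had a higher and 9 a lower mean in the knockout, with a median of -0.103, and the part of hypoxia in the Ddit4 value was not tested. Egln3, an oxygen sensor induced by hypoxia, was at 8.18 and 8.09 in wild type and at 7.76 and 7.40 in the knockout, and Ankrd37 at 6.46 and 6.50 and at 6.24 and 6.33. Of 10 tested targets of ATF4, the factor of amino acid stress, 4 were higher and 6 lower, with a median of -0.055. An unadjusted p under 0.05 was seen for 0 of them, against 6.74% of all genes. Sesn2 and Atf3 of this list had log2 fold changes of -0.12 ± 0.07 and -0.33 ± 0.20. Of 14 tested genes of the mTOR complexes and their inhibitors, 8 were higher and 6 lower, with a median of 0.017. Ddit4 was the 1 of these 14 with an unadjusted p under 0.05, against 6.74% of all genes. Ddit4l, the paralogue of Ddit4, was at 5.93 and 5.90 in wild type and at 5.85 and 5.83 in the knockout.

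Immediate early genes, which Per1, Sgk1 and Cebpd can join, gave 7 higher and 19 lower means of 26 tested, with a median of -0.065, and 3 lower at an unadjusted p under 0.05, against 3.08% of all genes. Jun, a subunit of AP-1, was at 8.03 and 8.25 in wild type and at 7.83 and 7.76 in the knockout, and Btg2 had a log2 fold change of -0.41 ± 0.06. Of 15 tested clock genes 6 were higher and 9 lower, with a median of -0.005, and 3 in each direction had an unadjusted p under 0.05, against 3.67% higher and 3.08% lower of all genes. Nr1d1, the clock repressor REV-ERB alpha, was at 6.43 and 6.27 in wild type and at 6.02 and 5.92 in the knockout, and Nr1d2 was at 9.20 and 9.22 and at 8.94 and 8.99. Nfil3, a repressor that opposes the PAR bZIP factors, had a log2 fold change of 0.63 ± 0.08. The part of sampling time in the values of Per1 and these genes was not tested. Among the EGF receptor family and its feedback inhibitors, which Errfi1 belongs to, 7 were higher and 3 lower of 10 tested, with a median of 0.017, and Dusp4, a phosphatase of ERK, was at 7.07 and 7.02 in wild type and at 6.87 and 6.84 in the knockout.

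The families of the members were described in the same way. Of the 4 TSC22 genes, Tsc22d2 was at 7.66 and 7.69 in wild type and at 7.81 and 7.84 in the knockout, Tsc22d1 had a log2 fold change of 0.15 ± 0.09 and Tsc22d4 one of 0.05 ± 0.10. Their wild-type arrays differed by 0.03, 0.09 and 0.27 with a sign that was not shared, against 0.88 for Tsc22d3. Sgk3 was at 6.38 and 6.32 in wild type and at 6.39 and 6.39 in the knockout, and Sgk2 was not above background on enough arrays. Of 11 tested FK506-binding proteins 9 had a higher and 2 a lower mean, with a median of 0.089. Fkbp8 was at 6.84 and 6.82 in wild type and at 6.96 and 6.95 in the knockout, and Fkbp1a, which binds the ryanodine receptor, had a log2 fold change of 0.13 ± 0.04. Fkbp4, the immunophilin that competes with Fkbp5 on the receptor, was at 10.31 and 9.86 in wild type and at 10.45 and 10.08 in the knockout, lower on the second array of each genotype where Fkbp5 was higher. Of 14 tested Krüppel-like factors 7 were higher and 7 lower, with a median of -0.006. Klf3 was at 7.84 and 7.84 in wild type and at 7.70 and 7.63 in the knockout, and Klf10 had a log2 fold change of -0.18 ± 0.07. Of 4 tested C/EBP genes 2 were higher and 2 lower. No gene of these families had an adjusted p under 0.05.

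For the 2 members with the widest range over the arrays, the genes with the most similar pattern were found by Euclidean distance between log2 values centred on each gene's mean over the 4 arrays. The 3 nearest to Ddit4, with distances of 0.121, 0.257 and 0.311, were Hbb-bt, Hbb-b2 and Hba-a2, all globin genes of red blood cells. Hbb-bt was at 7.01 and 8.19 in wild type and at 8.49 and 8.59 in the knockout, and Hba-a2 at 8.73 and 10.17 and at 10.45 and 10.50. Globin genes are near copies of each other, and their probes may share transcripts. Of the red blood cell list all 5 tested genes had separate groups with the knockout higher, as had 19.4% of all genes, and the defining heme enzyme gene Alas2 was at 6.08 and 6.15 in wild type and at 6.23 and 6.24 in the knockout. The part of red blood cell RNA in the Ddit4 difference was not tested. Nearest to Tsc22d3, at distances of 0.123, 0.136 and 0.160, were Frmd5, Rhobtb1 and Pdk4. Frmd5 was at 8.76 and 9.56 in wild type and at 8.97 and 9.18 in the knockout, and Rhobtb1 at 7.76 and 8.54 and at 8.11 and 8.39. With 4 arrays and 15955 genes some genes lie close to any pattern.

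**Figure D4:**
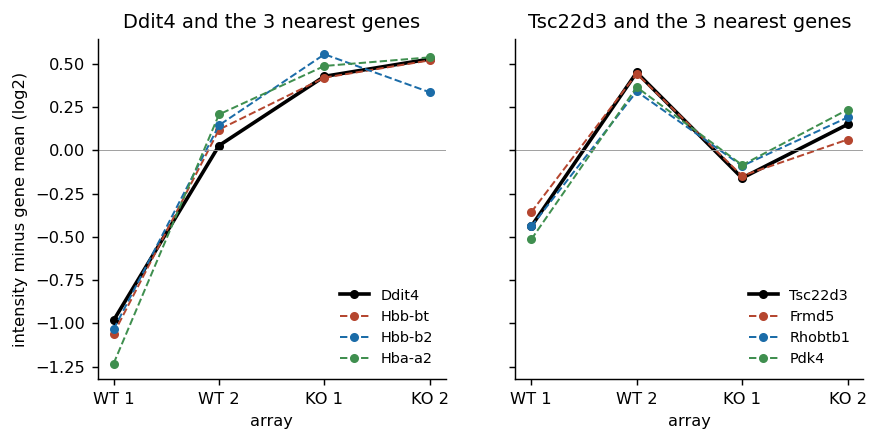
Normalized log2 intensity minus the gene's mean on each array for Ddit4 (left) and Tsc22d3 (right), in black, with the 3 nearest genes dashed. Ddit4 and the globins step up from the first wild-type array to the other 3, whereas Tsc22d3, Frmd5, Rhobtb1 and Pdk4 are highest on the second wild-type array.

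Markers of other cells moved less than the red blood cell list between the arrays. In the order of wild type first and second, then knockout first and second, summed linear intensities were 819.8, 763.2, 846.7 and 881.4 for 7 macrophage genes, 459.4, 499.2, 398.6 and 360.9 for 5 neutrophil genes, and 239.0, 239.2, 235.6 and 239.2 for 4 lymphocyte genes. For 6 endothelial genes they were 1059, 1050, 999.1 and 1035, for 7 fibroblast genes 4801, 4321, 4113 and 3629, and for 6 smooth muscle and pericyte genes 2150, 2112, 2716 and 2114. The 8 cardiomyocyte genes summed to between 206700 and 216000 on every array. Adipocyte genes, of which 3 were tested and Lep was not above background on any array, summed to between 179.5 and 184.7, near the dim end of the scale. Atrial genes, 3 of 4 tested, summed to 3430 and 3435 in wild type and to 4232 and 6382 in the knockout. The sum of 4 skeletal muscle genes, without Myh2 and Myh4 which were not above background, was between 3866 and 4713. Linear sums follow the brightest genes of a list. The atrial sum followed Nppa (log2 fold change 0.64), while Myl4 had -0.45 and Myl7 0. The neutrophil sum followed Ly6g (-0.75), while S100a8 had 0.02. Among fibroblast genes Dcn had -0.47 and Col3a1 0.49, and the skeletal muscle sum followed Ckm. The part of these cells in the members' values was not tested.

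**Figure D5:**
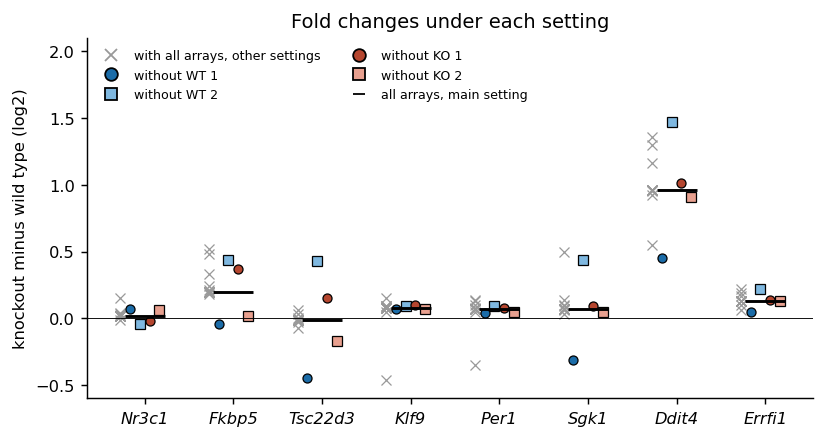
Knockout minus wild type in normalized log2 intensity for each member with all arrays (black line), without each array in turn (coloured points) and under the other settings with all arrays (grey crosses). Ddit4 stays above 0 in all 15 alternatives, between 0.45 and 1.47, while Tsc22d3, Sgk1 and Fkbp5 lie on both sides of 0 depending on which wild-type array is left out.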

How the data were processed

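Total RNA of ventricular muscle was amplified and coupled to Cy5 for Toray arrays, per the labels' protocols. For each of 27456 spots the deposited scanner files give a median intensity and a local background, both linear, per the file headers. The headers give slopes between scanner gains of 0.504 and 0.519 for wild type and 0.478 for both knockout arrays. Whether arrays were scanned in sets by genotype is not known. If they were, an effect of scanning could not be told apart from genotype. A second deposited table holds intensity values that the authors had processed. Each of its columns follows the spot medians of its array on a straight line (99% of residuals under 0.0496 units). The brightest values were left out of that fit. The columns have 78.4 to 87.7 units subtracted and a median of 25. Per array, 3714 to 4955 dim cells are empty by a rule that is not known. The sources used here give neither the genome build nor the software.

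Spot medians were corrected with normexp (offset 50, all spots) in limma 3.58.1 under R 4.3.3, without local background, which followed the spots (correlation 0.931 to 0.967 of log2 values). They were log2 transformed and quantile normalized. The offset shrinks differences of dim probes. Of 23473 probes, 20690 had 1 platform symbol, and the rest, with none or more than 1, were not assigned to a gene. Probes above background on at least 2 arrays were kept (19117), and the brightest kept probe stood for a gene with several. Genotypes were compared by lmFit with eBayes, with Benjamini-Hochberg adjustment over all 15955 genes and a threshold of 0.05. Tests are two-sided, and fold changes carry limma standard errors with 2 residual and 2.49 prior degrees of freedom. An exact permutation of 2 against 2 arrays cannot go below p = 0.333. The limma step was tested on simulated data.

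The members, the gene lists and the naming rule (every member, up to 4 genes per list by p, the 3 nearest genes of 2 members) were chosen with earlier results of these data known; other genes named were chosen after their values were seen. Promoter sequences are RefSeq's for GRCm38.p6; Nr3c1, Cebpd and Zbtb16 are not shown. Alternatives changed the background, normalization, filter, source of values, probe choice and variance model, added the replicate number, or left out each array.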

Additional observations from a re-analysis of the deposited data

How the results depend on the processing

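Over 15 alternatives, 0 members and 0 genes of the pathway lists had an adjusted p under 0.05. Over all genes the count was 0 with each alternative but 1: leaving out 1 array gave 0 to 1, the 1 being Hba-a2 without the second wild-type array (adjusted p = 0.0487). The median log2 fold change of the members, 0.075, ran from 0.042 to 0.328 when 1 array was left out, the highest without the second wild-type array. Of 120 member values 11 changed sign. For Nr3c1 they were -0.01 with a common median, and -0.04 and -0.02 with the second wild-type or the first knockout array left out (range over single arrays -0.04 to 0.07). For Tsc22d3 they were 0.06 with local background subtracted, 0.03 in the authors' table, and 0.43 and 0.15 with those same arrays left out (range -0.45 to 0.43). Without the first wild-type array Fkbp5 turned to -0.04 (range -0.04 to 0.44) and Sgk1 to -0.31 (range -0.31 to 0.44), and with local background subtracted Klf9 turned to -0.46 and Per1 to -0.35; the cause was not tested. Members at an unadjusted limma p under 0.05, 1 in the main setting, numbered 2 with local background subtracted (Klf9 and Per1, both lower in the knockout). All genes at that threshold then numbered 710 higher and 580 lower of 15955. Members at it numbered 0 with a common median and 2 with the replicate number as a block (Ddit4 and Fkbp5, both higher). These member counts are from fits with all 4 arrays. They do not cover fits with 1 array left out, where a group has a single array and the members' fold changes moved most. The block gave 0 adjusted calls and 628 higher and 520 lower genes at an unadjusted p under 0.05. Deviations of same-numbered arrays correlated at 0.0967 over genes, and the labels do not say that a number pairs samples. Those counts, 585 and 491, were 397 and 676 with a common median, 718 and 415 with a common 75th percentile, 198 and 462 in the authors' table, 1143 and 1201 without the first wild-type array and 250 and 194 without the second knockout array. With 2 arrays per group, and Cebpd and the second Klf9 probe at or near background, small differences were not detectable. Large ones were not called either. Hba-a2, 2.04-fold higher in the knockout, had a limma adjusted p of 0.777, and Ddit4, 1.94-fold higher, one of 0.727. The absence of calls therefore does not show that large differences are absent.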
